A study of Mus musculus with 12 samples.

Results

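Tmem100 and 7 genes of bone morphogenetic protein (BMP) signalling were followed in fasted white gastrocnemius muscle of mice carrying a mutant form of the energy-sensing kinase AMPK. The genes were the receptors Acvrl1 and Bmpr2, the target genes Id1, Id2 and Id3, and the inhibitory Smad genes Smad6 and Smad7. They were taken as every probe set that the array annotation assigns to exactly 1 of these 8 symbols, which gave 10 of the 22626 probe sets tested (8 of 12393 genes): 3 for Id2 and 1 for each other gene. Tmem100 was selected on its measured difference between the genotypes, and the other genes were taken with results of these arrays known, so genotype differences of all 10 probe sets are given as a description and not as evidence.

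The transgenic group held 6 male C57BL/6 mice of generation F5 that carried the AMPK γ3 subunit with the R225Q substitution, and the wild-type group held 6 littermates of the same sex, strain and generation. All were 17 to 18 weeks old and had been fasted overnight, and the white, mostly fast-fibred portion of the gastrocnemius was taken. Each mouse gave 1 MOE430A array, and arrays are named by the numbers in the labels, 1 to 6 for transgenic and 7 to 12 for wild type. The promoter that drives the transgene and the number of founder lines are not given in the sources used here, and the transcript of the transgene was not analysed here. Values are log2 units of the deposited probe set intensity, differences are transgenic minus wild type with the standard error (SE) of the limma fit, and probe sets were called at a Benjamini-Hochberg adjusted p under 0.05 over all probe sets tested.

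The fast-fibre genes that define this tissue (Myh4, Pvalb, Actn3 and 5 others) were bright on every array, with a mean log2 intensity of 13.63 ± 0.02 for transgenic mice and 13.63 ± 0.04 for their wild-type littermates (SD, n = 6 each). Arrays were hybridized on 2 days, 3 of each genotype per day. Transgenic array 1 and wild-type array 7 came from a smaller chip lot and stood apart in the Gapdh control, whose 3′ probe set exceeded its 5′ probe set by 0.185 and 0.184 log2 units there, against -0.0944 to -0.00174 on the other 10.

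BMP ligands bring type I and type II receptors together, and the activated type I receptor phosphorylates the transcription factors Smad1, Smad5 and Smad9, which enter the nucleus with Smad4. The Id genes are among the best known direct targets, and Smad6 and Smad7 are induced as feedback inhibitors. In skeletal muscle the pathway is known to support fibre mass and to act on muscle stem cells. In mouse endothelium, signalling through ALK1, the product of Acvrl1, is known to induce Tmem100, which encodes a small transmembrane protein needed for vessel development.

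Tmem100 was lower in transgenic muscle on every array. Its signal had a lowest value of 6.20, a median of 6.31 and a highest value of 6.46 log2 units in transgenic muscle, against 6.60, 7.07 and 7.49 in wild-type muscle. The genotypes did not overlap: the brightest transgenic array, number 4, lay below the dimmest wild-type array, number 7. On the linear scale the means were 80.0 ± 5.31 for transgenic mice and 133.7 ± 29.8 for wild-type mice (SD, n = 6 each). The difference was -0.71 ± 0.12 log2 units (SE), a fold of 0.609. It was the only call among the 10 probe sets (limma adjusted p = 0.0285), where 0.0707% of all probe sets were called (0.0265% as lower and 0.0442% as higher in transgenic muscle), and the only one without overlap, where 0.504% of all had none. Nothing is read from either count, since this contrast led to the choice of the gene.

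The call was not firm against the loss of arrays. Leaving out 1 array kept the difference between -0.80 and -0.62, but the limma adjusted p stayed under 0.05 only without wild-type array 7 (0.00358), 8 (0.0458) or 10 (0.0343). Without any of the other 9 arrays it lay between 0.055 and 0.109, the highest being without transgenic array 2. Without both arrays of the smaller chip lot the difference was -0.78 ± 0.10 (limma adjusted p = 0.0105).

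Tmem100 was spread less widely in transgenic mice, with an SD of 0.09 log2 units, against 0.32 in wild-type mice. By hybridization day, transgenic arrays ran from 6.20 to 6.32 on day 1 and from 6.30 to 6.46 on day 2, while wild-type arrays ran from 6.60 to 6.95 on day 1 and from 7.18 to 7.49 on day 2. Within each day the SD was smaller in transgenic mice, at 0.06 and 0.08 for days 1 and 2, against 0.18 and 0.17 in wild-type mice. The difference in spread was not tested. Over all arrays 50.6% of probe sets were dimmer than Tmem100, and without a detection call its distance from background is not known. The genotype difference was -0.52 ± 0.10 on day 1 and -0.91 ± 0.10 on day 2 (SE). The change in this difference between days was -0.39 ± 0.15, with an unadjusted p of 0.0198 and an adjusted p of 0.999 in limma's interaction test, so it did not pass.

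**Figure D1:**
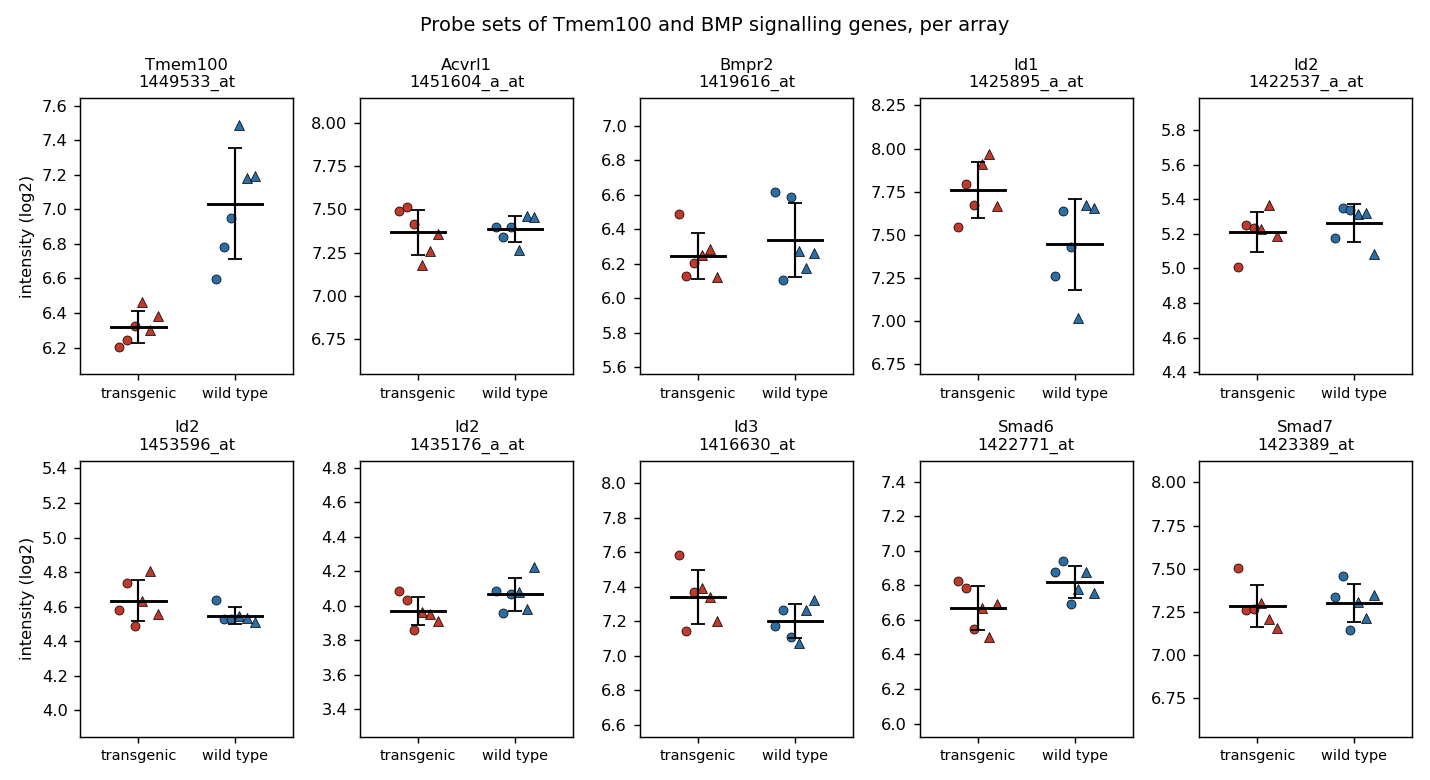
Log2 intensity of each of the 10 probe sets on each array (points), transgenic on the left and wild type on the right of every panel, with circles for hybridization day 1, triangles for day 2, a bar at the mean and whiskers of 1 SD (n = 6). All panels span the same number of log2 units. The genotypes separate for Tmem100, at 6.20 to 6.46 in transgenic and 6.60 to 7.49 in wild-type muscle, and overlap in the other 9 panels.

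The receptor genes showed little difference between genotypes. Acvrl1, which encodes the endothelial type I receptor ALK1, had values of 7.18 to 7.51 with a median of 7.39 log2 units in transgenic muscle, against 7.27 to 7.46 with a median of 7.40 in wild-type muscle. The difference was -0.02 ± 0.06 (SE), and the wild-type values lay wholly within the transgenic range. Transgenic arrays of day 1 were all brighter for Acvrl1 than those of day 2, and the genotype difference was 0.09 ± 0.08 on day 1 and -0.13 ± 0.08 on day 2. Bmpr2, the type II receptor for BMPs, ran from 6.12 to 6.49 with a median of 6.23 in transgenic muscle and from 6.11 to 6.61 with a median of 6.27 in wild-type muscle. The difference was -0.09 ± 0.09 and was -0.04 without wild-type array 7, the brightest array for this gene.

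Among the Id genes, which encode proteins that bind bHLH transcription factors and keep them from DNA, Id1 stood highest above wild type. Id1 had a lowest value of 7.54, a median of 7.73 and a highest value of 7.97 log2 units in transgenic muscle, against 7.02, 7.53 and 7.67 in wild-type muscle. The groups overlapped, but all 6 transgenic arrays were brighter than the mean of the wild-type arrays. The difference was 0.31 ± 0.11 (SE), with an unadjusted p of 0.0112 and an adjusted p of 0.729 in limma, so Id1 did not pass. Wild-type array 10 was the dimmest for Id1 and the brightest for Tmem100, and without it the Id1 difference was 0.23. On day 1 it was 0.23 ± 0.11 and on day 2 it was 0.40 ± 0.16.

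Id3 was at 7.14 to 7.59 with a median of 7.36 log2 units in transgenic muscle and at 7.08 to 7.32 with a median of 7.22 in wild-type muscle. Its difference was 0.14 ± 0.07 (SE; limma adjusted p = 0.999), and 0.09 without transgenic array 1, the brightest. Id2 was dim, with between 4.17% and 19.8% of all probe sets dimmer than its 3 probe sets. The brightest of them ran from 5.01 to 5.37 with a median of 5.23 in transgenic muscle and from 5.08 to 5.35 with a median of 5.32 in wild-type muscle, a difference of -0.05 ± 0.07. The other probe sets of Id2 gave 0.09 ± 0.06 and -0.10 ± 0.06, which differ in sign. The intensities carry no detection call, so the distance of Id2 from background is not known.

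Of the inhibitory Smads, Smad6 was the lower of the pair. Smad6, which blocks BMP receptors and Smad1 in preference to the TGF-β branch, had values of 6.50 to 6.83 with a median of 6.68 log2 units in transgenic muscle, against 6.69 to 6.94 with a median of 6.83 in wild-type muscle. The groups overlapped, and 5 of 6 transgenic arrays were dimmer than the mean of the wild-type arrays. The difference was -0.15 ± 0.07 (SE), with an unadjusted p of 0.0366 and an adjusted p of 0.978 in limma. It was -0.12 ± 0.11 on day 1 and -0.18 ± 0.08 on day 2. Smad7, which inhibits both the BMP and the TGF-β branch, ran from 7.16 to 7.51 with a median of 7.26 in transgenic muscle and from 7.15 to 7.46 with a median of 7.32 in wild-type muscle, a difference of -0.02 ± 0.07. The 2 highest Smad7 values were transgenic array 1 and wild-type array 8. In all, 3 of the 10 probe sets had an unadjusted p under 0.05 in limma (Tmem100, Id1 and Smad6), where 4.63% of all probe sets did.

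**Figure D2:**
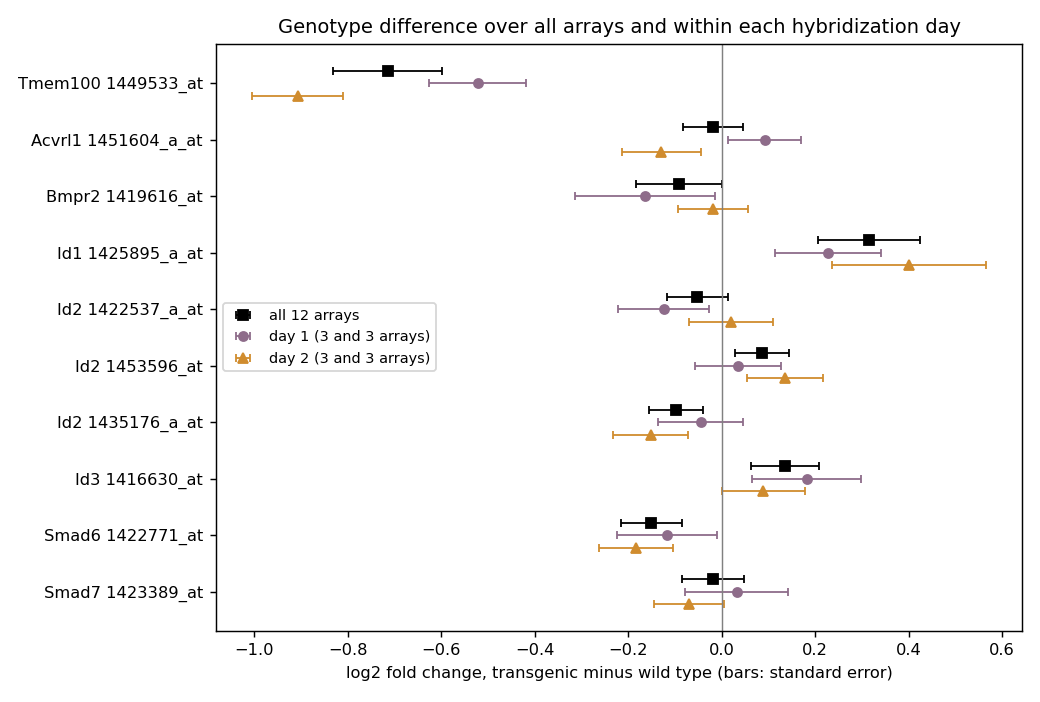
Log2 fold change, transgenic minus wild type, of each of the 10 probe sets with its standard error over all 12 arrays (squares) and over the 3 transgenic and 3 wild-type arrays of hybridization day 1 (circles) and day 2 (triangles). Tmem100 lies at -0.71 over all arrays and at -0.52 and -0.91 on the 2 days, while Id1 is positive and Smad6 negative on both days and Acvrl1 changes sign.

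Promoters of 4 of the genes were found in the RefSeq table (GRCm38.p6, 250 bases before to 50 after the start), and 3 are shown because they belong to classic BMP targets whose differences ran in different directions. In each, capitals mark the Smad palindrome GTCTAGAC or the GC-rich motif GGCGCC bound by BMP Smads, which were searched on both strands and do not overlap here. Smad6 lies at chr9:64022010-64022309 on the minus strand, Id2 at chr12:25096043-25096342 on the minus strand and Id3 at chr4:136143572-136143871 on the plus strand.
Smad6: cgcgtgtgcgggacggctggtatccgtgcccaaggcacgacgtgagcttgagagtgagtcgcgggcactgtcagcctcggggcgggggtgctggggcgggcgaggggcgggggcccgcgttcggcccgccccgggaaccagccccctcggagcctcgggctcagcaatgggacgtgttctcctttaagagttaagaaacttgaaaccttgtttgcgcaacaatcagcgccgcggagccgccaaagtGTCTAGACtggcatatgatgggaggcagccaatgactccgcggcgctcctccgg
Id2: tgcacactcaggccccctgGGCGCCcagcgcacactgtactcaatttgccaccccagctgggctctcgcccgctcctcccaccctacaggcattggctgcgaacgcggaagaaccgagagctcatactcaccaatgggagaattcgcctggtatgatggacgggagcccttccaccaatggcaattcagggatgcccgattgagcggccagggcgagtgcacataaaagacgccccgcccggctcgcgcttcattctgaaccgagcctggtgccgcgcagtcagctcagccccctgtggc
Id3: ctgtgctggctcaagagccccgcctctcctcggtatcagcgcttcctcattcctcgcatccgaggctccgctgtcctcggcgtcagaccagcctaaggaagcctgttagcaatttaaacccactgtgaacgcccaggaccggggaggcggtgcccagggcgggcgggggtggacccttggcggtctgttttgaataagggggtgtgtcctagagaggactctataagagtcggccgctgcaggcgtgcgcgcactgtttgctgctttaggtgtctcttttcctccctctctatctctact

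The Smad6 window held 1 copy of GTCTAGAC, which begins at position -4 from the start used for this window and runs across it. The annotated Smad6 gene reaches farther upstream, to chr9:64022085, so the palindrome lies within the span of the gene. That palindrome occurred in 70 of 32851 promoter windows of the same length (0.213%). The Id2 window held 1 GGCGCC at position -231 from the start, and the window of Bmpr2 held 1 at position -105, where 11.9% of all windows held it. The Id3 window held neither. The E-box CANNTG, to which bHLH factors bind, was present once each in the Smad6 and Id2 windows and in 72.3% of all windows. These matches describe the letters in the windows and were not tested against the measured values.

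Other genes of the pathway gave no call. Of 49 listed genes that are not among the 8, 40 were measured, each by its brightest probe set, and 18 had positive and 22 negative differences, with a median of -0.01 where the median over all 12393 genes was -0.00133. None passed in limma over all probe sets and 4 had an unadjusted p under 0.05 (0.0888% and 4.91% of all genes). Ligand genes were balanced, with 4 higher and 4 lower and none with an unadjusted p under 0.05 in limma. Bmp4, a ligand made by many vascular and stromal cells, was at 0.10 ± 0.05 log2 units (SE; limma adjusted p = 0.999), and Gdf2, which encodes the ALK1 ligand BMP9, was at -0.05 ± 0.05.

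Receptor genes other than Acvrl1 and Bmpr2 were lower in 5 of 6 cases, with a median of -0.09, and none was called. Acvr2b, the type II receptor for activins, myostatin and some BMPs, had a mean log2 intensity of 6.45 ± 0.12 in transgenic mice and 6.67 ± 0.12 in wild-type mice (SD, n = 6), a difference of -0.21 ± 0.07 (SE; limma adjusted p = 0.638). Acvr2a, its close relative, was at -0.20 ± 0.07 (limma adjusted p = 0.816), while Eng, the endothelial co-receptor endoglin, was at 0.06 ± 0.05. Smad4, the partner shared by all receptor-activated Smads, averaged 9.60 ± 0.14 in transgenic mice and 9.80 ± 0.08 in wild-type mice (SD, n = 6). Its difference was -0.21 ± 0.07 (SE; limma adjusted p = 0.653), and the other Smad genes of the list lay between -0.05 (Smad5) and 0.07 (Smad1).

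Antagonists and modulators had 4 positive and 8 negative differences, none with an unadjusted p under 0.05 in limma. Skil, which encodes the Smad corepressor SnoN, had the smallest p of them, at -0.20 ± 0.10 (SE; limma adjusted p = 0.999). Further target genes were higher in 8 of 10 cases, with a median of 0.05 and no call. Gja4, the gap junction gene of arterial endothelium connexin 37, was at 0.14 ± 0.05 (SE; limma adjusted p = 0.775), and Id4, the remaining Id gene, at 0.12 ± 0.08. Among all listed genes Acvr2b, Smad4, Gja4 and Acvr2a were those with an unadjusted p under 0.05 in limma. Bmp4, Gdf2, Eng, Smad1, Smad5 and Id4 are named for their roles and were picked after their values had been seen.

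**Figure D3:**
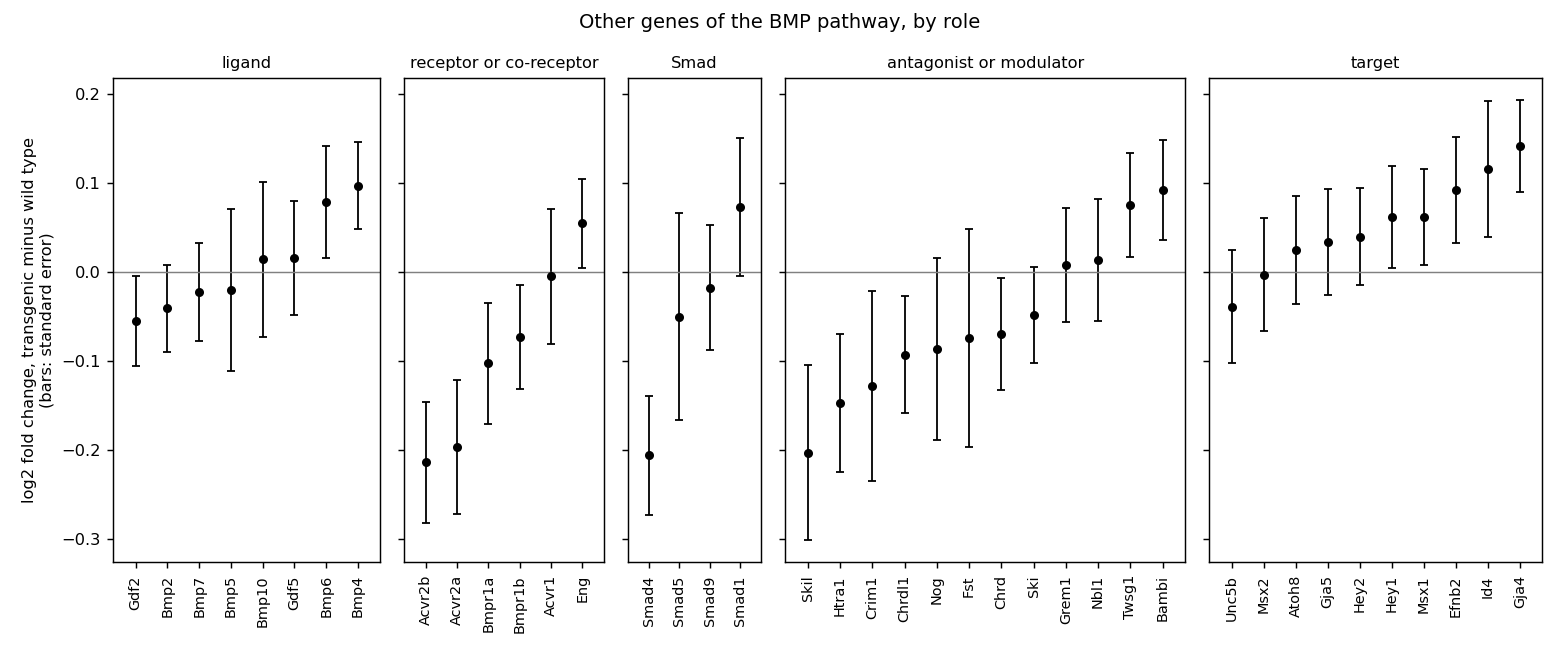
Log2 fold change, transgenic minus wild type, with its standard error for the 40 measured pathway genes outside the set of 8, ordered by size within each role. Receptors lie mostly below 0 (5 of 6) and targets mostly above it (8 of 10), and no gene was called.

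The neighbouring TGF-β and activin branch was measured by 16 genes, of which 13 had negative differences, with a median of -0.07. None passed in limma and 1, Ltbp3, had an unadjusted p under 0.05, where 4.91% of all genes did. The median was -0.03 without transgenic array 1, and -0.10 without transgenic array 4 or without wild-type array 7. Ltbp3, which binds latent TGF-β, was at -0.17 ± 0.07 (SE; limma adjusted p = 0.907), Tgfb3 at -0.13 ± 0.06, Smad3 at -0.17 ± 0.08, Smad2 at -0.12 ± 0.07 and Tgfbr1 at -0.12 ± 0.08. Of 12 bHLH genes, whose products Id proteins bind or neighbour, 5 were positive and 7 negative, with a median of -0.02 and no call in limma. Myod1, a myogenic factor whose partners the Id proteins sequester, was the member with an unadjusted p under 0.05, where 4.91% of all genes had one. It had a mean log2 intensity of 6.99 ± 0.16 in transgenic mice and 7.37 ± 0.12 in wild-type mice (SD, n = 6), a difference of -0.38 ± 0.08 (SE; limma adjusted p = 0.132). Its genotypes did not overlap, at 6.75 to 7.15 in transgenic and 7.20 to 7.58 in wild-type muscle, where 0.504% of all probe sets had no overlap. The Myod1 difference was -0.24 ± 0.08 on day 1 and -0.51 ± 0.11 on day 2. Hes1 was at 0.14 ± 0.09, Msc at -0.06 ± 0.06, Myf6 at -0.08 ± 0.11 and Hes6 at -0.03 ± 0.05.

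Because Tmem100, Acvrl1, Smad6 and Id1 are known from endothelium, marker genes of the cell types in muscle were set beside them. In whole muscle, fewer cells of a type and less RNA per cell cannot be told apart. Endothelial markers were higher in transgenic muscle in 13 of 15 cases, where 49.4% of all genes were higher, with a median of 0.13. None was called in limma and 7 had an unadjusted p under 0.05, where 4.91% of all genes did. Their mean level ran from 7.81 to 7.96 log2 units in transgenic mice and from 7.70 to 7.84 in wild-type mice. This was the opposite direction to Tmem100 and Smad6 and the same direction as Id1, while Acvrl1 differed little. Cdh5, which encodes VE-cadherin, was at 0.28 ± 0.08, and Esam, Emcn, Kdr and Ptprb lay between 0.15 and 0.19. The median over the list was 0.18 on hybridization day 1 and 0.05 on day 2.

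Adipocyte markers were, like Tmem100, lower in transgenic muscle in 5 of 5 cases, with a median of -0.52 and no call in limma (3 with an unadjusted p under 0.05, where 4.91% of all genes had one). Their mean level ran from 6.07 to 6.83 log2 units in transgenic mice and from 6.63 to 7.36 in wild-type mice. Lep was at -0.52 ± 0.15, Cidec at -0.52 ± 0.18, Pck1, the dimmest, at -0.16 ± 0.09 and Retn at -0.09 ± 0.06, and Pck1 was at -0.07 without wild-type array 11. Adipoq was at -1.01 ± 0.37, with -0.16 ± 0.26 on day 1 and -1.85 ± 0.48 on day 2. Transgenic array 5 was far the dimmest for Adipoq, at 6.60 against 8.38 or more on the other arrays, and without it the difference was -0.65. The median over the list was -0.09 on day 1 and -0.73 on day 2. Slow-fibre markers were lower in 7 of 7 cases, with no call in limma, 1 unadjusted p under 0.05 (Atp2a2, -0.52 ± 0.23), a median of -0.52 and list means of 7.48 to 8.57 in transgenic and 7.47 to 9.38 in wild-type muscle. Without wild-type array 9 this median was -0.31. Fibroblast markers were lower in 7 of 7 cases, from -0.23 (Dpt) to -0.0016 (Dcn), with none at an unadjusted p under 0.05 in limma, a median of -0.13 and a mean level of 9.20 ± 0.15 in transgenic muscle and 9.34 ± 0.19 in wild type (SD over arrays). The fibroblast median turned direction between days, at 0.03 on the first day of hybridization and -0.16 on the later day. Mural cell, macrophage and Schwann cell lists each had a median of 0.02 and no call. The part of these markers in the Tmem100 difference was not tested.

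No relation between Tmem100 and the mean level of a gene list passed within a genotype when all relations of both genotypes were adjusted together. Of 22 relations computed, 11 lists in each genotype, the smallest adjusted p was 0.0917. It belonged to the endothelial and adipocyte lists over the 6 wild-type arrays, with r = 0.932 and rho = 0.943 for endothelial markers (exact permutation p = 0.00833 and 0.0167) and r = 0.915 and rho = 0.943 for adipocyte markers (exact permutation p = 0.00833 and 0.0167). Adjusted over the 11 lists of wild-type muscle alone, the exact permutation p of both lists was 0.0458. Whether they passed thus depended on which relations were adjusted together. Without the 2 wild-type arrays farthest from the Tmem100 median r was 0.761 for the endothelial and 0.934 for the adipocyte list. In transgenic muscle, where Tmem100 was spread over 0.26 log2 units, r was 0.0966 for endothelial and 0.0707 for adipocyte markers (exact permutation p = 0.847 and 0.883). The mural list had r = -0.328 in transgenic and 0.889 in wild-type muscle (exact permutation p = 0.507 and 0.0194).

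The fast-fibre and TGF-β lists had positive values in both genotypes. The fast-fibre list had r = 0.825 in transgenic and 0.734 in wild-type muscle (exact permutation p = 0.0528 and 0.0653), and the TGF-β list had r = 0.778 and 0.759 (exact permutation p = 0.0944 and 0.0903). By rank, the fast-fibre list had rho = 0.6 in transgenic and 0.829 in wild-type muscle (exact permutation p = 0.242 and 0.0583). For the TGF-β list rho was 0.543 and 0.886 (exact permutation p = 0.297 and 0.0333). In wild-type muscle without the 2 arrays farthest from its Tmem100 median, r fell to 0.0224 for the fast-fibre list and 0.517 for the TGF-β list. The fast-fibre mean was lowest on transgenic array 1 (13.59, highest 13.67) and wild-type array 7 (13.54, highest 13.66). Those arrays form the smaller chip lot and were also the dimmest for Tmem100 in their genotypes (6.20 and 6.60). List correlations were not computed without that lot. With each genotype's mean removed, r over the 12 arrays was highest for the mural list, at 0.799 (permutation p = 0.0287). It was 0.725 for the fast-fibre list (permutation p = 0.00605) and 0.711 for the TGF-β list (permutation p = 0.0218). The adipocyte list had 0.666 (permutation p = 0.0254) and the endothelial list 0.644 (permutation p = 0.0208). The smallest p adjusted over the 11 lists was 0.0631 in this permutation test, so none passed. Without the 2 arrays farthest from the Tmem100 median the r was 0.431 for fast-fibre, 0.325 for endothelial and 0.525 for adipocyte markers (permutation p = 0.0745, 0.306 and 0.154). For the mural and TGF-β lists it was 0.535 and 0.6 (permutation p = 0.27 and 0.121). With the day mean removed as well, r over the 12 arrays was 0.773 for endothelial, 0.696 for fast-fibre and 0.495 for adipocyte markers (permutation p = 0.00875, 0.0203 and 0.103, not adjusted over the lists). For the mural and TGF-β lists it was then 0.563 and 0.584 (permutation p = 0.241 and 0.173, likewise not adjusted). These relations were computed after the values had been seen.

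**Figure D4:**
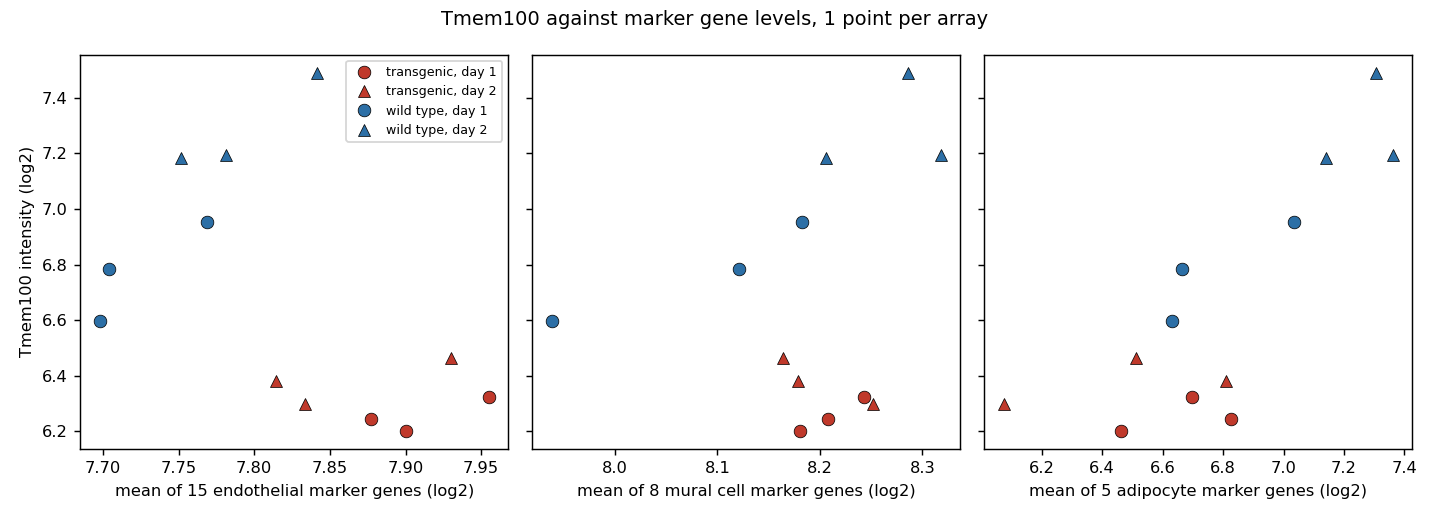
Log2 intensity of Tmem100 (vertical axis) against the mean log2 intensity of 15 endothelial, 8 mural cell and 5 adipocyte marker genes (horizontal axes), 1 point per array, with transgenic arrays in red, wild-type arrays in blue, circles for hybridization day 1 and triangles for day 2. Wild-type points slope upward (r = 0.932 for endothelial markers, not past the threshold after adjustment over 22 relations), while transgenic points lie below them at 6.20 to 6.46 for Tmem100.

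No correlation of the other 7 genes with Tmem100 over the 12 arrays passed its test. With each genotype's mean removed, r over 12 arrays was negative for 6 of the 7, from -0.418 for Bmpr2 to 0.12 for Id2. By rank, rho lay between -0.427 (Smad6) and 0.217 (Id1). For Id1, Id2 and Id3 rho was opposite in sign to r, at 0.217, -0.035 and 0.021. The permutation p lay between 0.199 and 0.797 for r and between 0.157 and 0.956 for rho, with adjusted p-values over the 7 pairs of 0.707 to 0.797 for r and 0.796 to 0.956 for rho. Without the 2 arrays farthest from the Tmem100 median r ran from -0.417 to 0.356, and with the day mean removed as well from -0.618 (Acvrl1) to 0.406 (Id2). Acvrl1 ran against Tmem100 within transgenic muscle at r = -0.828 and within wild-type muscle at r = -0.241 (exact permutation p = 0.0472 and 0.643, not adjusted), and the other 6 genes had exact permutation p-values above 0.05 in each genotype. Id1 and Id3 were at r = 0.254 and rho = 0.385 (permutation p = 0.395 and 0.217). Within transgenic muscle their r was -0.322 and within wild-type muscle it was 0.873 (exact permutation p = 0.549 and 0.0375), which were not adjusted and whose difference was not tested. Id1 and Id2 gave r = 0.259 over 12 arrays, with r = 0.849 within transgenic and -0.111 within wild-type muscle (exact permutation p = 0.0181 and 0.85, likewise not adjusted). Id2 with Id3 gave r = -0.517, and no Id pair passed over the 3 pairs (smallest adjusted permutation p = 0.318).

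The hybridization day, a contrast that played no part in the choice of the genes, moved none of the 10 probe sets past the threshold. In limma none of all 22626 was called for day (0%), with 9.44% at an unadjusted p under 0.05. Tmem100 was the member among these, higher on day 2 by 0.32 ± 0.09 log2 units (SE; unadjusted p = 0.00224, limma adjusted p = 0.288). The other 9 lay between -0.13 and 0.09 with adjusted p-values of 0.624 or more in limma. The interaction of genotype and day was called for none of the 10 and none of all probe sets (0%). Tmem100 again was the member with an unadjusted p under 0.05 in limma, as were 3.04% of all probe sets.

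Among 7390 genes brighter than the median probe set, the pattern most like that of Tmem100, by Pearson correlation of deviations from the genotype mean over the 12 arrays, was that of Zscan26 (r = 0.939), a zinc finger gene. H1f2 (0.927), a linker histone, Kpnb1 (0.921), the nuclear import receptor importin β, Zfp869 (0.912) and Sec62 (0.911), a part of the endoplasmic reticulum translocon, came next. Glud1 (0.892), Larp1 (0.891), Sgcb (0.89), Son (0.886) and Snhg1 (0.885) completed the first 10. The genes most unlike it were Slc13a2 (r = -0.914), Aimp2 (-0.896), Stard6 (-0.866), Myog (-0.864), a myogenic bHLH factor, and Nkx2-9 (-0.86). Wild-type arrays weigh more in this measure, since Tmem100 was spread more widely there. Within transgenic muscle r was 0.912 for Zscan26 but 0.448 for Kpnb1, 0.346 for Larp1 and -0.433 for Stard6. Within wild-type muscle these were 0.969, 0.989, 0.94 and -0.935. With the day mean removed as well, r was 0.899 for Zscan26, 0.634 for Larp1 and 0.601 for Snhg1. Of the genes of the set bright enough to be ranked, Id1 came 4580th with r = -0.114 and Smad6 5705th with r = -0.334. With so many genes and 12 arrays high values arise readily: the highest 5% of genes had an r of 0.707 or more. In each genotype Tmem100 was dimmest on the array of the smaller chip lot, at 6.20 on transgenic array 1 and 6.60 on wild-type array 7. Myog was brightest on the same arrays, at 7.40 and 7.54. The ranking was not repeated without that lot. The correlations share the arrays, days and chip lots, and are given as a description.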

How the data were processed

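Affymetrix MOE430A arrays of 12 mice were compared by genotype, taken from the sample titles. The intensity values that the authors deposited are linear and, per the submitters' processing notes, came from RMA; its version and probe definition file are not given in the sources used here. The deposited settings text, classed as other than expression data, gave hybridization days, runs and chip lots. Intensities were converted to log2 with no pseudocount. Of 22690 probe sets, 64 controls were set aside, no filter on low values was applied, and 22626 were fitted with limma 3.58.1 in R 4.3.3 (lmFit, eBayes, no covariate). Gene symbols came from the platform table. Lists used the brightest probe set of each gene, and the text names the called members of a list and up to 5 with the smallest p; of the slow-fibre and fibroblast markers, examples were picked after their values were seen. The number of arrays limits the precision, with a median SE of 0.0689. Correlations used 100000 permutations within genotype, or all orders for 6 arrays. The fit was tested on simulated data.

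The genes, lists and tests were chosen with earlier results of these data known. Alternatives were day or run as a block, leaving out arrays or a chip lot, a brightness filter, a pseudocount, quantile normalization, robust eBayes and gene means. Leaving out arrays for the adipocyte, fibroblast and slow-fibre lists was added after seeing the data.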

Additional observations from a re-analysis of the deposited data

Results flagged for a closer look

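On the second brightest of the 3 probe sets of Id2, wild-type array 7 stood apart from the other wild-type arrays, at 4.64 log2 units, with the next at 4.55 and the lowest at 4.51. This array belongs to the smaller chip lot. It was the only such value among 28 groups of 6 arrays examined, and chance flags about 1 group in 20.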

How the results depend on the processing

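Tmem100 was lower in transgenic muscle under each of 18 alternatives, between -0.80 and -0.62, and was called in 8 of them, with limma adjusted p-values of 0.00321 (hybridization day as a block) to 0.109. With a pseudocount of 16 it was at -0.62 and missed the threshold (limma adjusted p = 0.0564). The brightness filter removed it along with Bmpr2 and Id2 and kept 5 of the 10 probe sets. Id1, Id3 and Smad6 kept their direction in all 19 of their alternatives, without a call, while Acvrl1 and Smad7 changed sign in 2 each. The number of called probe sets, 16, was 6 with run as a block, 23 with day as a block, and 5 to 18 on leaving out 1 array; the cause was not tested. The pathway, TGF-β, bHLH and endothelial lists had no call under any alternative, and the median of the pathway list, -0.01, ran from -0.03 to 0.02. Leaving out 1 array kept the medians of the adipocyte, fibroblast and slow-fibre lists below 0. Correlations with Tmem100 reversed without the smaller chip lot for Bmpr2 (0.0097) and Id2 (-0.288), without the 2 farthest arrays for Id1 (0.356), Id2 (-0.216) and Id3 (0.047), and with gene means for Id2 (-0.0219). Leaving out 1 array gave -0.406 to 0.615 for Id1, -0.0706 to 0.31 for Id2 and -0.228 to 0.141 for Id3. Id1 with Id2 reversed without the smaller lot (-0.0474), and Id2 with Id3 without the 2 farthest arrays (0.191); the cause was not tested. No paired analysis was made, because the array numbers do not link transgenic mice to wild-type littermates and the sample labels used here name no litter.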
